A study of Mus musculus with 11 samples.

Results

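The baseline transcriptome described here is that of 6 control cultures of mouse hippocampal neurons, chosen by their titles alone as controls 1 to 6 among the 11 samples of the series. The cells were primary neurons of the CD1 strain, dissociated from embryonic day 17 (E17) hippocampi, and per the study's methods hippocampi of several embryos were pooled in a preparation. At day in vitro 10 (DIV10) the control cultures received lipid nanoparticles loaded with a negative control RNA, whereas the other 5 samples received nanoparticles with a mimic of the microRNA miR-181a-5p. ApoE4 protein was added to both groups per the study's methods, and RNA was taken 48 h later at DIV12. The control cultures are therefore not untreated cells, and no culture without nanoparticles and ApoE4 was analysed here. The labels do not say whether the 6 samples came from separate preparations, so the spread between them may in part be technical.

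The hippocampus holds glutamatergic principal neurons of the CA fields and the dentate gyrus, and a smaller set of local interneurons that release GABA. Its acetylcholine, noradrenaline and serotonin come from fibres of neurons whose cell bodies lie outside it. Embryonic tissue also brings in dividing glial precursors, and cells of the meninges and of the choroid plexus lie beside the hippocampus. Neurobasal medium with B27 favours neurons over glia without removing the latter.

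Depth was 17287168 to 48091231 counts per control sample, with the largest total in control 1 and the smallest in control 5. A count of 3, the upper limit that a count of 0 allows, was worth 0.0624 CPM (counts scaled to the library total) in the deepest and 0.174 CPM in the shallowest sample, for counting error alone. Levels are given as CPM for one gene across samples. Between genes they are given as TPM, here the count per kilobase of merged exon scaled so that every sample has the same sum. Pairwise correlations of log2 CPM over 13910 genes lay between 0.996 and 0.998, and every pair differed by more than sampling noise, with a chi-square of at least 1.25 per degree of freedom. In such bulk samples fewer cells of a type and less RNA per cell cannot be told apart.

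A set of very short loci had to be set aside before genes could be ranked per length. Mir6236 and Gm23935 are annotated as microRNA genes, and a 50-base read can lie fully inside them at 74 and 8 start positions. Both had high per-length levels and were among the 4 most variable genes of the control cultures, as given further on. The sequence of Gm23935, from its GENCODE M21 transcript on GRCm38, is shown because it is scarcely longer than a read.
Gm23935 (chr16:11144125-11144181, plus strand): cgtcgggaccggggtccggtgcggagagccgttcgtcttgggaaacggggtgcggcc
Mir6236 had a lowest, median and highest level of 3654, 6469.8 and 7914 TPM in the 6 control cultures. Gm23935 had 4434, 10352 and 12413 TPM, and each of its 8 windows of 50 bases also occurs in the transcripts of another gene. Poly(A) libraries of this kind do not measure mature microRNAs, so these values stand for reads over the loci and not for microRNA levels. Genes with less than 200 bases of exon are left out of the rankings that follow.

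Protein-coding genes took nearly all of the counts, and within them no small set of genes dominated. Their share was 98.05% ± 0.10 (SD, n = 6) of counts, with a range of 97.9% to 98.1%. Between 1012 and 1024 genes together held 50% of the counts of a sample, and the 10 most abundant genes of a sample held 3.95% to 4.15%. A mean of at least 1 CPM was reached by 13910 genes, of which 12872 were protein-coding and 13443 were at or above 1 CPM in each of the 6 samples. The 12872 were among 21695 annotated protein-coding genes, which is the background for the counts of list genes at 1 CPM given below. At 100 CPM there were 2426 genes, and 77 genes, 73 of them protein-coding, reached 1000 CPM.

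Long intergenic noncoding RNAs (lincRNAs) took 0.769% ± 0.0265 of counts, and 241 of 3840 annotated lincRNA genes reached 1 CPM. Antisense genes took 0.159% and pseudogenes 0.134%, both without strand information in the library kit, so reads of such genes cannot be told apart from those of overlapping or parent genes. The 37 genes of the mitochondrial genome took 3.26% ± 0.108, with control 2 highest at 3.48% and the other 5 samples between 3.20% and 3.26%. The nuclear ribosomal RNA class had the largest relative spread of the classes examined, from 0.0692% in control 2 to 0.191% in control 6, a coefficient of variation (CV) of 38.8%. Protein-coding genes had a CV of 0.106% and lincRNAs of 3.45%.

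Gene families that mark other tissues were all but silent. Of 1105 olfactory receptor genes, which sense odorants in the nose, 954 had no count in any of the 6 samples and 1 reached 1 CPM. No vomeronasal receptor gene (0 of 295) reached 1 CPM, and 254 had no count. Clustered protocadherins, the cell surface molecules that give neurons distinct identities, were present at 1 CPM for 53 of 57 genes. Of 40 proteasome subunit genes 37 were at 1 CPM, and of 80 subunit genes of oxidative phosphorylation 73 were, with median levels of 121 and 164 TPM.

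The 10 nuclear protein-coding genes with the highest mean level per length were led by genes of secretion, the cytoskeleton and calcium signalling. Cpe (chr8:64592542-64693054), which encodes the prohormone-processing carboxypeptidase E, had 5469, 5563 and 5644 TPM as its lowest, median and highest level, and a mean of 5556 ± 59.7 TPM (SD, n = 6). Nnat (chr2:157560078-157562522), the imprinted gene of neuronatin, had 3768, 4123 and 4445 TPM with a mean of 4147 ± 233. The lowest Cpe level lay above the highest Nnat level, so these ranks did not overlap between samples.

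Cytoskeletal genes followed: the alpha tubulin gene Tuba1a (3399 ± 65.4 TPM), the actin-binding thymosin gene Tmsb4x (3271 ± 134 TPM), the beta tubulin gene Tubb2a (2421 ± 26.8 TPM) and Stmn3, a regulator of microtubules (2314 ± 50.1 TPM). Calm3, which encodes the calcium sensor calmodulin, had 3186 ± 109.7 TPM. The others were the selenoprotein gene Selenow (2948 ± 109 TPM), the chaperone gene Hsp90ab1 (2916 ± 38.4 TPM) and Psap, whose product feeds lysosomal lipid breakdown (2383 ± 38.1 TPM). Neighbours in this order could overlap, as the range of Selenow, 2741 to 3036 TPM, lay across that of Hsp90ab1, 2869 to 2975 TPM. Of the 10 genes, 7 were also among the 10 highest when the longest transcript was used as the length, and 2 (Cpe and Hsp90ab1) when CPM was not divided by length.

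Of the 5 highest other nuclear genes, CT010467.1, Gm15564 and Malat1 were more uneven, with CVs of CPM of 38.9%, 24.8% and 13.2%. Meg3 (3.69%) and Atp6v0c-ps2 (4.85%) were not, as Nnat had 5.48%. CT010467.1, annotated as ribosomal RNA, had 1164, 1827 and 3237 TPM, a range wider than that of any gene among the 10 above. Gm15564, an antisense gene, had 642, 878 and 1219.9 TPM. Meg3, a maternally expressed long noncoding RNA of neurons, stood at 694 ± 26.6 TPM and the nuclear speckle RNA Malat1 at 393 ± 51.8 TPM. The pseudogene Atp6v0c-ps2 had 449 ± 21.8 TPM, but 90.1% of its 50-base windows also occur in the transcripts of another gene, so its reads are uncertain.

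**Figure D1:**
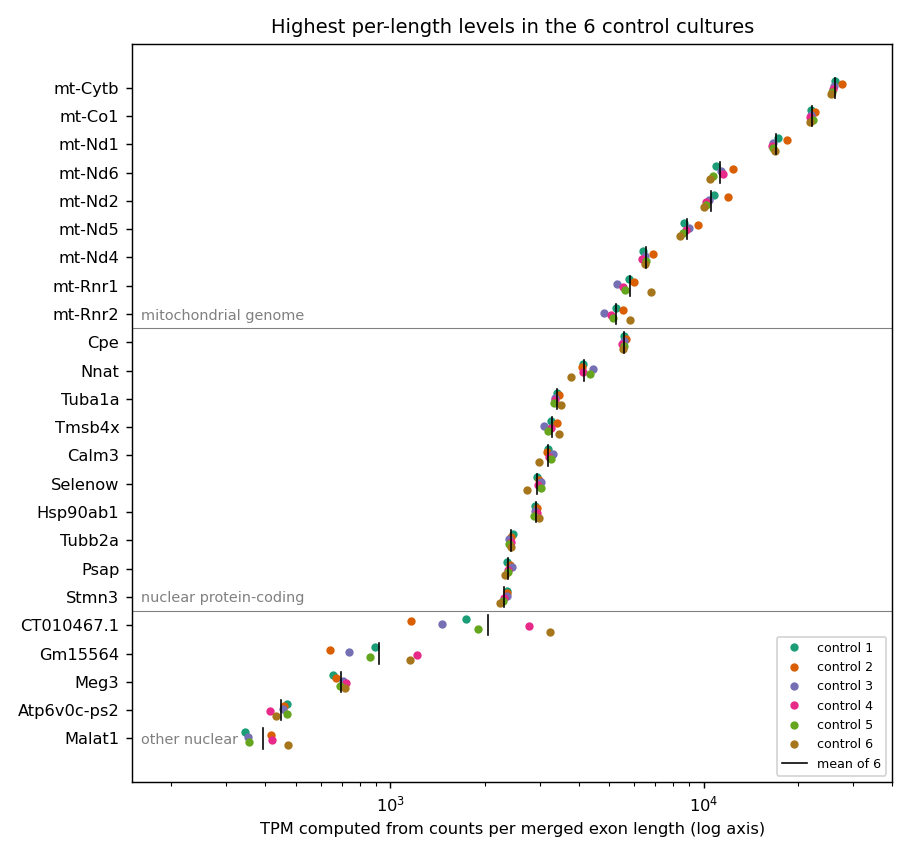
Per-length level (TPM, log axis) of the highest genes in each of the 6 control cultures, with 1 coloured point per culture and a black bar at the mean of 6, in 3 blocks: genes of the mitochondrial genome with counts, the 10 highest nuclear protein-coding genes and the 5 highest other nuclear genes. Points of most genes nearly coincide, as for Cpe between 5469 and 5644 TPM, while CT010467.1 spans 1164 to 3237 TPM.

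Of the 14 long noncoding RNAs listed, 13 were matched by symbol and 12 of these reached 1 CPM. Next to Meg3, the genes Rian and Mirg, which lie in the same imprinted cluster, had 131 ± 5.18 and 10.3 ± 0.785 TPM. Miat, a nuclear noncoding RNA found in neurons, had 145 ± 6.09 TPM and Peg13, a paternally expressed imprinted RNA, 143 ± 3.16 TPM. Neat1, the scaffold of nuclear paraspeckles, was far lower at 6.39 ± 0.463 TPM, and H19, an imprinted fetal RNA, was at 0.600 ± 0.257 TPM.

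Levels of genes with close relatives in the genome carried a second limit that the counts themselves show. For each gene the share of its 50-base windows, the length of a read, that also occur in the transcripts of another gene was computed. Among protein-coding genes with no such window (10355 genes) the median level was 8.16 TPM and 9.06% had no count in any control sample. Among the 865 genes with over 90% shared windows the median was 0 TPM and 81.6% had no count. The options for reads that map to several places are not given in the sources used here, so a low level of a gene with many shared windows is no measure of its expression.

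Several genes often used as references fell under this limit. Gapdh, a glycolytic enzyme, was at 9.48 ± 0.555 TPM with 82.5% shared windows, and the cytoplasmic actin gene Actg1 was at 3.63 ± 0.441 TPM with 56.7%. Actb, the other cytoplasmic actin gene, stood at 1785 ± 39.8 TPM with 14.2% shared windows. Tuba1b had 80.9 ± 1.93 TPM with 83.1%, against 3399 ± 65.4 TPM for Tuba1a with 75.5%. Reference genes without shared windows were Hprt, of purine salvage, at 359 ± 19.4 TPM, Sdha, of mitochondrial respiration, at 326 ± 5.67 TPM and B2m, the light chain of class I histocompatibility molecules, at 189 ± 10.2 TPM. Ribosomal protein genes took 0.322% ± 0.0041 of counts with a median of 25.1 TPM, compared with 121 TPM for proteasome subunits. Their level did not fall steadily with the shared share. The median was 18.3 TPM for the 9 genes without shared windows, 32.5 TPM for the 12 genes with up to 10%, and 38.8 TPM for the 38 genes with over 10% and up to 50%. It was lower above that, at 9.72 TPM for the 37 genes with over 50% and up to 90%, and 0.380 TPM for the 5 genes with over 90%.

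The mitochondrial genome showed the same split within 1 molecule. mt-Cytb, the cytochrome b of complex III, had 26168 ± 781 TPM, mt-Co1, the catalytic subunit of complex IV, 22076 ± 317 TPM and mt-Nd1, a complex I subunit, 17046 ± 739 TPM. By contrast mt-Co2, mt-Co3, mt-Atp6, mt-Nd3 and mt-Nd4l had no count in any of the 6 samples, and 97.99% to 100% of their windows are shared with another gene. mt-Atp8, whose gene overlaps mt-Atp6, also had no count although none of its windows is shared. The mitochondrial share of counts given above therefore leaves out 6 of the 13 mitochondrial protein-coding genes.

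**Figure D2:**
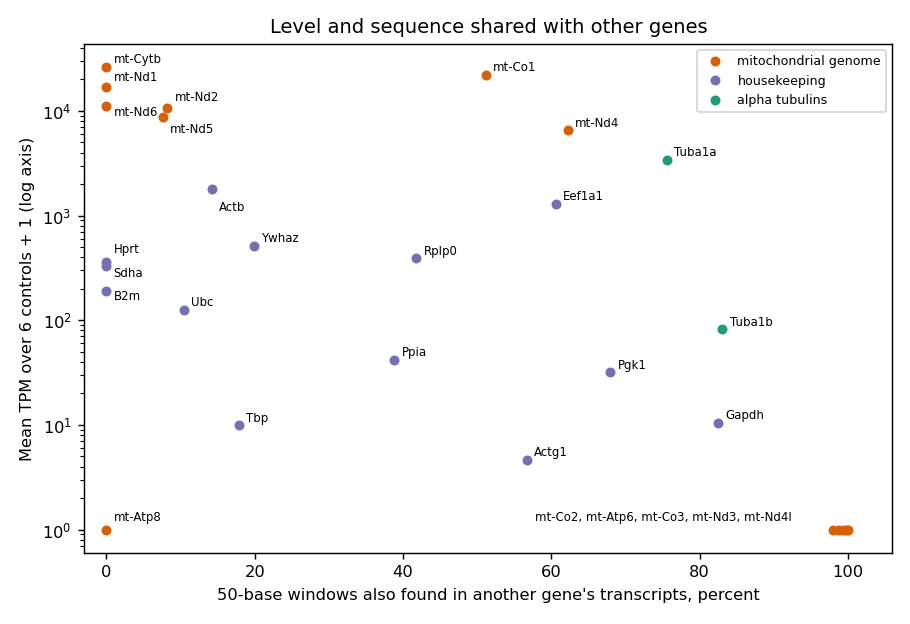
Mean TPM over the 6 control cultures plus 1 (log axis) against the percent of a gene's 50-base windows that also occur in another gene's transcripts, for mitochondrial protein-coding genes, housekeeping genes and 2 alpha tubulin genes, with 1 point per gene. The 5 mitochondrial genes at the lower right have 97.99% to 100% shared windows and no counts, Gapdh has 82.5% and 9.48 TPM, and mt-Atp8 lies at the lower left with 0% and no counts.

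The neuronal label was borne out by the neuronal markers, all 20 of which were above 1 CPM. The growth cone gene Gap43 was highest with 2198 ± 63.7 TPM, followed by Tubb3, the neuronal beta tubulin, with 1823 ± 35.3 TPM and Uchl1, a neuronal ubiquitin hydrolase, with 1766 ± 44.7 TPM. The dendritic gene Map2 had 659 ± 8.95 TPM and the axonal gene Mapt 755 ± 23.4 TPM. Rbfox3, the splicing factor also known as NeuN, had 96.9 ± 5.17 TPM, and Dcx, a microtubule protein of immature neurons, had 157 ± 3.602 TPM. Dcx exceeded Rbfox3 in each of the 6 cultures, 1.62-fold (range 1.499 to 1.79) per length. Its size depended on the length used, with a log2 ratio of 0.70 per merged exon length, 0.29 with the longest transcript and 1.82 in CPM. The summed level of the 20 genes had a lowest, median and highest value of 12696, 13034 and 13118 TPM.

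Within-culture pairs such as Dcx and Rbfox3 were tested over the 6 log2 ratios with a two-sided exact sign-flip permutation test, for 18 pairs. Every pair had the same order in each of the 6 cultures and so an exact permutation p = 0.03125, the smallest value that 6 samples allow, with a Benjamini-Hochberg adjusted value of 0.03125. The test thus says that an order held in 6 of 6 cultures, and it does not rank pairs. Where the way of correcting for length turned or removed an order, this is said beside the pair.

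Genes of glutamate and GABA transmission were abundant. Slc17a7, which encodes the vesicular glutamate transporter VGLUT1, had 688, 713 and 742 TPM as its lowest, median and highest level. Slc17a6 (VGLUT2) had 31.1, 32.05 and 33.0 TPM and Slc17a8 (VGLUT3) a mean of 3.40 ± 0.395 TPM. Slc17a7 exceeded Slc17a6 22.3-fold (range 20.95 to 23.9) per length. Slc32a1, the vesicular GABA transporter, had 42.3, 47.3 and 52.6 TPM, and Slc17a7 exceeded it 15.1-fold (range 14.0 to 16.7). This log2 ratio was 3.91 per merged exon length, 4.72 with the longest transcript and 4.86 in CPM, and 23.7% of the Slc32a1 windows are shared.

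The enzymes that make GABA from glutamate, Gad1 and Gad2, were at 143 ± 3.65 and 91.8 ± 3.38 TPM, and their order was the same in 6 of 6 cultures with a ratio of 1.55 (range 1.48 to 1.64). On the log2 scale this ratio was 0.64 per merged exon length, 1.69 with the longest transcript and 1.01 in CPM. All 4 genes of the GABAergic core list and all 13 genes of the glutamatergic list were above 1 CPM. The kinase subunit gene Camk2a, of excitatory synapses, led the glutamatergic list with 1113 ± 14.9 TPM, and Neurod6, a transcription factor of forebrain pyramidal neurons, had 915 ± 37.7 TPM.

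Genes of the other transmitters were at or near the detection limit. Chat, which makes acetylcholine, and Fev, a transcription factor of serotonin neurons, had no count in any of the 6 samples, which allows up to 0.0624 to 0.174 CPM. None of the 3 cholinergic genes, 3 serotonergic genes or 2 glycinergic genes reached 1 CPM. Th, the first enzyme of catecholamine synthesis, was at 0.457 ± 0.174 TPM and Tph2, of serotonin synthesis in neurons, at 0.926 ± 0.335 TPM. The single gene of the catecholaminergic list above 1 CPM was Slc18a2, the vesicular monoamine transporter, with 2.90 ± 0.334 TPM, and it was also the single one of the 2 histaminergic genes. The summed cholinergic level was at most 0.299 TPM in any culture, against at least 512 TPM for the GABAergic core.

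**Figure D3:**
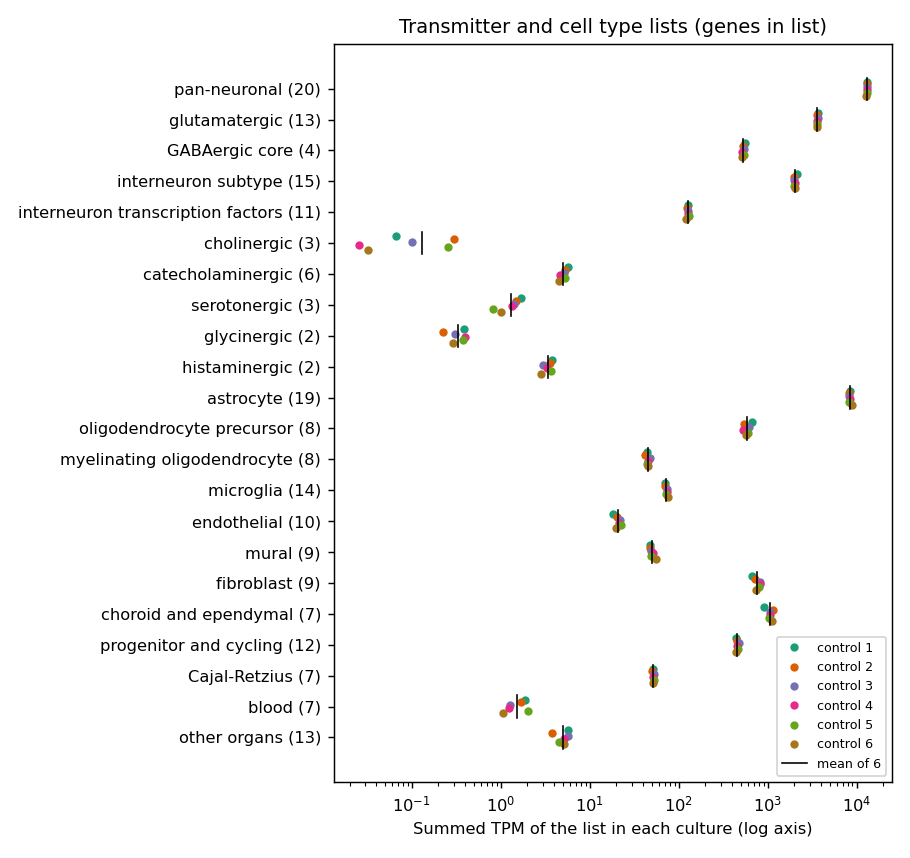
Summed level (TPM, log axis) of each transmitter and cell type list in each of the 6 control cultures, with 1 coloured point per culture, a black bar at the mean of 6 and the number of genes of the list in brackets. Pan-neuronal and astrocyte lists are highest, with medians of 13034 and 8319 TPM, while the cholinergic list ends at 0.299 TPM and the blood list at 2.03 TPM. Some sums rest mostly on 1 gene, so they do not rank cell types. These genes are Olig1 for oligodendrocyte precursors, Calb2 for interneuron subtypes, Igfbp2 for fibroblasts and Ttr for choroid and ependymal cells.

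Among interneuron markers, 13 of 15 subtype genes and 10 of 11 transcription factor genes were above 1 CPM. Calb2, the calcium-binding protein calretinin, was far the highest with 1401, 1467 and 1564 TPM, which placed it at rank 34 of all genes ranked. It lay far above the GABA synthesis genes Gad1 and Gad2 (means of 143 and 91.8 TPM). Which cells made the RNA of the genes on this list was not tested, so their levels are no measure of interneurons. The neuropeptide genes Cck, Npy and Sst had 228 ± 10.3, 108 ± 6.62 and 86.9 ± 12.0 TPM. Sst, which encodes somatostatin, varied more between cultures than Cck and Npy, from 71.9 to 101.2 TPM. Npy exceeded Sst per length in 6 of 6 cultures. In CPM without division by length no common order held, with a mean log2 ratio of Sst to Npy of 0.03. Sst was then above Npy in control 1 (17.3 against 15.9 CPM) and below it in control 2 (12.4 against 14.4 CPM).

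Markers of late-maturing or rare interneurons were low. Pvalb, the calcium buffer of fast-spiking basket cells, had 2.94 ± 0.353 TPM and Vip, the peptide of disinhibitory interneurons, 4.26 ± 0.531 TPM. Lhx6, the transcription factor of interneurons from the medial ganglionic eminence, was at 30.1 ± 1.12 TPM and Dlx1 at 19.6 ± 1.05 TPM. Dlx5 and Dlx2, of the same homeobox family, were at 3.76 ± 0.381 and 3.79 ± 0.415 TPM. Of 7 genes of Cajal-Retzius cells, the early-born neurons of the hippocampal surface, 4 were above 1 CPM, and their summed level was 50.4, 51.9 and 53.2 TPM. Reln, a secreted protein that some interneurons also make, had 34.2 ± 1.51 TPM, and Nhlh2 and Ndnf had 10.3 ± 0.706 and 5.80 ± 0.748 TPM. The transcription factor genes Trp73 and Lhx5 had 0.943 ± 0.161 and 0.258 ± 0.0981 TPM.

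Markers of each hippocampal subfield were present. For the dentate gyrus, 4 of 5 genes were above 1 CPM, among them C1ql2 with 45.7 ± 4.39 TPM and Prox1, the granule cell transcription factor that interneurons also express, with 15.7 ± 1.07 TPM, and Lct was at 0.213 ± 0.0783 TPM. For CA1 all 5 genes were, led by Wfs1 with 82.7 ± 4.23 TPM. Pcp4, a calmodulin-binding protein enriched in CA2, had 351 ± 12.1 TPM with 33.1% shared windows, and the other 3 CA2 genes were at 1.64 to 20.3 TPM. Grik4, the kainate receptor subunit of CA3, had 69.7 ± 1.89 TPM and all 5 CA3 genes were above 1 CPM. These genes are shared with other neurons to differing degrees, so their levels are no measure of subfield proportions.

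Synaptic genes were present throughout, with all 19 presynaptic and all 18 postsynaptic genes above 1 CPM. The complexin genes Cplx2 and Cplx1, whose proteins clamp vesicle fusion, had 1614 ± 38.6 and 985 ± 44.2 TPM. The vesicle SNARE gene Vamp2 had 952 ± 29.1 TPM and its partner on the plasma membrane, Snap25, 544 ± 14.8 TPM. Snap25 exceeded Snap23, its relative in most other cells, 42.4-fold (range 39.2 to 44.2), a log2 ratio of 5.41 that was 5.23 with the longest transcript and 6.07 in CPM. Syn1 exceeded Syn2 1.29-fold (range 1.21 to 1.33) per merged exon length, but the order turned with the length of the longest transcript (mean log2 ratio -0.49) and in CPM (-0.73).

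Pairs of receptor and transporter genes whose levels shift in development were also measured. The NMDA receptor subunit gene Grin2b had 143, 158 and 160.1 TPM and Grin2a, which rises later in development, 32.3, 33.8 and 34.2 TPM. The ratio of Grin2b to Grin2a was 4.62 (range 4.18 to 4.86). Slc12a5, the KCC2 chloride exporter that rises as GABA becomes inhibitory, exceeded the chloride importer gene Slc12a2 10.8-fold (range 9.66 to 12.4). The AMPA receptor genes Gria1 and Gria2 had 578 ± 3.95 and 222 ± 8.22 TPM, and Camk2a exceeded Camk2b 2.18-fold (range 2.15 to 2.20), a ratio with the smallest SD of log2 values (0.01) of the 18 pairs.

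The cultures were not neurons alone, since 18 of 19 astrocyte genes were above 1 CPM and several ranked with the highest neuronal genes. Apoe, the lipid carrier made by astrocytes, had 1539, 1598 and 1763 TPM, and these reads come from the cells' RNA and not from the added ApoE4 protein. Fabp7, a fatty acid carrier of radial glia and astrocytes, had 1450.3 ± 85.4 TPM and Sparcl1, a secreted matrix protein, 1405 ± 38.5 TPM. Gfap, the astrocyte intermediate filament, had 675, 696 and 796 TPM. The glutamate transporter genes Slc1a2 and Slc1a3 had 759 ± 26.6 and 509 ± 17.7 TPM, and the water channel gene Aqp4 116 ± 7.80 TPM.

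Gjb6, the connexin 30 of mature astrocytes, was the astrocyte gene that did not reach 1 CPM. Slc1a2 exceeded Slc1a3 1.49-fold (range 1.41 to 1.55) per merged exon length, a log2 ratio of 0.58 that was 1.198 in CPM, but the order turned with the longest transcript (mean log2 ratio -0.19). Gfap exceeded Slc1a3 1.41-fold (range 1.36 to 1.52) per length and was below it in CPM (mean log2 ratio -0.52). The summed astrocyte level was 8128, 8319 and 8872 TPM, and 12 of the 18 genes above 1 CPM had their highest level in control 6.

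Of the lists of the oligodendrocyte lineage, 4 of 8 precursor genes and 5 of 8 genes of myelinating oligodendrocytes were above 1 CPM. Over all protein-coding genes 12872 of 21695 were, so these counts alone do not show the lineage to be present. Olig1 had 550.2 ± 45.6 TPM and Olig2, its partner transcription factor, 26.8 ± 2.46 TPM, and both are also found in astrocytes and progenitors. Pdgfra, the growth factor receptor of oligodendrocyte precursors, had 7.36 ± 1.01 TPM and Sox10, which defines the lineage, 1.17 ± 0.581 TPM. Of the myelin list, Cnp, an enzyme of the myelin sheath, was highest at 25.2 ± 1.53 TPM and the tight junction gene Cldn11 had 6.15 ± 1.59 TPM. Mbp, which encodes myelin basic protein, was at 2.74 ± 0.286 TPM, and Mag, of mature myelin, at 0.0392 ± 0.0346 TPM. The median level per gene was 1.45 TPM on the precursor list and 3.55 TPM on the myelin list, and Pdgfra exceeded Mbp 2.68-fold (range 2.14 to 3.30).

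Microglia, the macrophages of the brain, were detectable at low level. Of 14 genes 10 were above 1 CPM, with Tyrobp and Aif1, a signalling adaptor and a calcium-binding protein of macrophages, at 11.2 ± 1.29 and 10.9 ± 1.08 TPM. The defining receptors Cx3cr1 and P2ry12 were at 0.612 ± 0.112 and 0.454 ± 0.154 TPM. The summed level was 69.6, 73.4 and 76.7 TPM in the lowest, median and highest culture, while the median astrocyte sum was 8319 TPM.

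Endothelial genes were sparse, genes of mural cells were present in part and fibroblast genes were all present. Of 10 endothelial genes 3 were above 1 CPM, with the growth factor receptor Kdr at 14.1 to 17.5 TPM, but Cldn5, the tight junction gene of brain endothelium, at 0.0102 ± 0.0250 TPM. Of 9 genes of mural cells, which wrap vessels, 5 were above 1 CPM, near the share over all protein-coding genes (12872 of 21695). The 9 genes had a summed level of 47.5, 48.9 and 55.9 TPM, and Pdgfrb and Rgs5 had 16.1 ± 1.79 and 10.7 ± 2.23 TPM. All 9 genes of the fibroblast list were above 1 CPM, with the collagen genes Col3a1 and Col1a1 at 54.6 ± 8.41 and 39.4 ± 6.09 TPM and Igfbp2, a growth factor binding protein that other cells also make, at 542 ± 40.5 TPM. Ttr, the thyroid hormone carrier made by the choroid plexus, had 866, 1020.4 and 1108 TPM, while Kcne2 and Folr1, of the same epithelium, were at 1.49 ± 0.498 and 12.9 ± 1.59 TPM.

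Genes of progenitors and of cell division were also present. Of 12 progenitor and cycling genes 11 were above 1 CPM. The intermediate filament genes Vim and Nes had 255 ± 12.0 and 68.5 ± 0.953 TPM and the stem cell transcription factor Sox2 70.2 ± 1.99 TPM, all 3 of which astrocytes can express. The proliferation genes Top2a and Mki67 were at 9.23 ± 1.00 and 7.48 ± 0.544 TPM, and Eomes, of intermediate neuronal progenitors, was at 0.163 ± 0.0926 TPM. Of 7 blood genes none reached 1 CPM, and of 13 genes of other organs 1 did, Myh6, a cardiac myosin heavy chain with 1.67 ± 0.266 TPM.

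Activity-regulated genes were all measurable and interferon-induced genes were mostly under 1 CPM. All 13 immediate early genes were above 1 CPM, with Bdnf, the neurotrophin, at 54.9 ± 2.98 TPM, the transcription factor genes Egr1 and Fos at 52.6 ± 1.91 and 21.4 ± 1.24 TPM, and the neuron-specific Npas4 at 10.9 ± 0.800 TPM. Of 10 interferon response genes 3 were above 1 CPM, among them Ifi27 at 18.6 ± 1.26 TPM and Bst2 at 4.88 ± 0.946 TPM. Ifit1, one of the most inducible of these genes, was at 0.151 ± 0.102 TPM.

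Genes of both female and male cells were expressed in every culture. Xist, the RNA that silences an X chromosome in female cells, had 218, 231 and 239 TPM. The Y-linked genes Eif2s3y, Ddx3y, Kdm5d and Uty had 18.0 ± 1.35, 12.9 ± 1.09, 3.05 ± 0.152 and 2.62 ± 0.211 TPM, and each was counted in all 6 samples. Ddx3y was lowest in control 5, at 13.2 CPM, with the other 5 samples between 16.3 and 16.7 CPM.

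Variation between the control cultures was small for most genes. It was expressed as the biological coefficient of variation (BCV), the spread that edgeR attributes to samples beyond counting noise. The BCV common to 17890 genes was 3.46%. Each gene's own value, with no sharing between genes, was set against the trend at its abundance, and a gene was called variable where its own BCV was at least 1.5 times the trend. With 6 samples own values scatter widely, and 3861 genes, which is 21.6% of all genes, were past this line. A second line at 3 times the trend, added after the data were seen, was passed by 893 genes (4.99%).

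Variable genes were more frequent among low genes, with 36.1% of genes under 1 CPM past the line and 9.35% of those at 100 CPM or more. Pan-neuronal genes were near this background. Of the 20 genes 3 were variable (1 without control 6), all under 3 times the trend, and the median ratio of own BCV to trend was 0.82, against 0.64 over all genes. Presynaptic genes gave 2 of 19 variable with a median ratio of 0.91, postsynaptic genes 5 of 18 with 0.67, and glutamatergic genes 5 of 13 with 1.06. Interneuron subtype genes gave 4 of 14 and CA1 genes 3 of 5, each with 1 gene past 3 times the trend. The summed pan-neuronal level had a CV of 1.16%.

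The fibroblast list had the largest share of its genes past the line among the cell type lists with at least 5 genes. All 9 genes of the fibroblast list were variable and 7 of them were past 3 times the trend, with a median ratio of 4.65. Of 7 oligodendrocyte precursor genes measured for variation 6 were variable and 3 were past the stricter line, of 7 choroid and ependymal genes 5 and none, of 8 mural genes 5 and 2, and of 19 astrocyte genes 7 and none. Microglial genes gave 2 of 14 and the 5 sex chromosome genes none. No difference between lists was tested. Within the oligodendrocyte list Sox10 had the largest ratio (5.93) and went from 0.449 to 1.58 CPM.

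**Figure D4:**
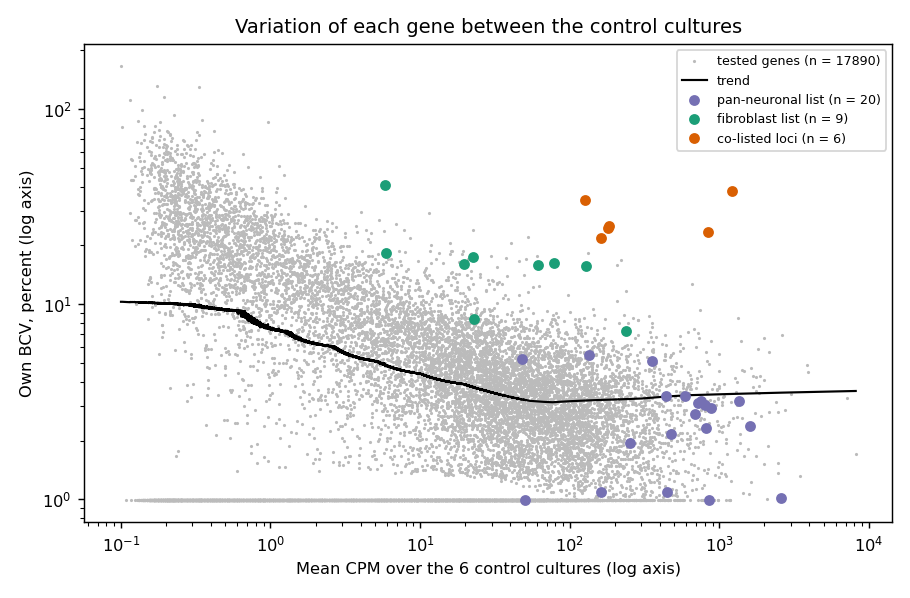
Own BCV of each of 17890 genes (percent, log axis) against its mean CPM over the 6 control cultures (log axis), with the trend as a black line, and the pan-neuronal, fibroblast and 6 co-listed loci marked. The floor of points at 0.988% is the lowest value that edgeR gave. Most pan-neuronal genes lie at or under the trend, fibroblast genes lie at 2.24 to 8.19 times the trend and the 6 loci at 6.75 to 10.9 times.

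Among the 11143 genes that averaged 5 CPM or more, the 10 with the largest ratio of own BCV to trend fell into 2 sets. One consisted of 6 loci that form a list written with earlier results of these data known, so their variation in this ranking is a description. CT010467.1 (chr17:39846353-39848827) had 689, 1076 and 1904 CPM as its lowest, median and highest level, and a ratio of 10.9. Gm23935 had 60.6, 141 and 169.5 CPM (ratio 10.6) and Mir6236 had 108, 190.2 and 233 CPM (ratio 7.74).

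The other 3 of these loci were Gm15564 (chr16:35966752-35983230), Gm26917 (chr17:39843013-39846341), a lincRNA gene beside CT010467.1, and Lars2 (chr9:123366927-123462666), which encodes the mitochondrial leucyl-tRNA synthetase. Lars2 ranged from 567 to 1103 CPM with a median of 821 CPM. Lars2 and Gm15564 share 41 sequences of 16 bases on the same strand, whereas the other 14 pairs among the 6 loci share none, so the 6 counts are not the same reads throughout. All 6 loci were lowest in control 2, and 5 of them were highest in control 4 and 1 in control 6. As a mean over the 6 loci, each relative to its own mean, the level was 0.609 in control 2 and 1.31 in control 4.

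The second set consisted of 4 genes of the matrix and of non-neuronal cells. Slc6a13, the GABA transporter of meningeal and other barrier cells, was 3.04 and 3.03 CPM in controls 1 and 2 and between 6.45 and 7.91 CPM in the other 4 (ratio 8.19). Tgfbi, a secreted matrix protein, had 7.40, 10.1 and 16.1 CPM. Apod, a lipid carrier of glia and fibroblasts, had 36.8, 50.8 and 70.3 CPM, and Eln, the elastic fibre protein elastin, 17.2, 21.7 and 30.9 CPM. Eln was highest in control 3, and the other 3 genes were highest in control 4. Of the 40 genes with the largest ratios, 5 are on the fibroblast list.

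The fibroblast genes moved together. Of the 9 genes 7 were lowest in control 1 and 6 were highest in control 4. Col1a2, a fibrillar collagen chain, had 56.1, 82.9 and 89.6 CPM, and Dcn, a proteoglycan that binds collagen, 16.9, 22.4 and 27.5 CPM. The mean relative level of the 9 genes was 0.749 in control 1 and 1.18 in control 4, with 0.929 to 1.06 in the other 4 cultures. The collagen family as a whole had the same lowest and highest culture, with 0.129% of counts in control 1 and 0.158% in control 4. Control 1 was also the deepest library. With all samples thinned to the total of the shallowest, all 9 genes were variable, and without control 1 there were 8 of 9.

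**Figure D5:**
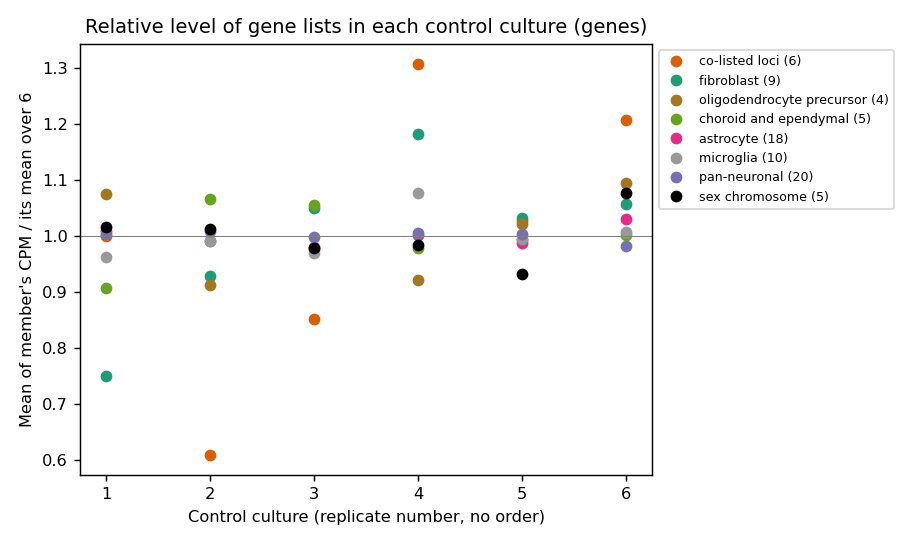
Mean over the genes of a list of CPM in a culture divided by the gene's mean over 6 cultures, for 8 lists, with the control cultures side by side in no order and the number of genes of each list in brackets. The 6 co-listed loci span 0.609 in control 2 to 1.31 in control 4, the fibroblast list 0.749 in control 1 to 1.18 in control 4, and the pan-neuronal list stays between 0.981 and 1.01.

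Neuronal and astrocyte genes differed most in control 6. There 10 of the 20 pan-neuronal genes and 12 of the 19 presynaptic genes had their lowest level, and 12 of 18 astrocyte genes their highest. The differences were small, with a mean relative level of 0.981 for pan-neuronal and 1.03 for astrocyte genes. Control 6 also stood at one end of the first principal component of the 6 samples (29.3% of variance), opposite controls 3 and 5.

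Base composition moved with this pattern. The gene loadings of the first component had a Pearson correlation of 0.424 and a Spearman correlation of 0.487 with exon GC content over 13884 genes of the same 6 libraries, given as a description. Of protein-coding genes at 20 CPM or more, split into 4 GC classes of 1897 genes, the highest class had a median log2 deviation of -0.05 in control 6 and 0.05 in control 3, and the lowest class 0.04 and -0.04. In the highest class 23.6% of genes were variable, compared with 5.85% to 11.3% in the other 3 classes. The part of GC content in the variation of any list above was not tested.

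The 5 genes ranked as most even had a highest CPM 1.007 to 1.016 times their lowest. Among the 2426 genes that averaged 100 CPM or more, 440 had the lowest own BCV that edgeR gave (0.988%), and these were ordered by the CV of CPM. That CV still holds counting error, and the lowest values of 440 tied genes were taken. The order among the tied genes is therefore a description and no measure of which gene is most even. Zcchc18, a zinc finger gene on the X chromosome, had 321, 322 and 323 CPM (CV 0.251%) and Prmt5, an arginine methyltransferase, 125, 126 and 126 CPM (CV 0.288%). Gria1, the AMPA receptor subunit named above, had 829, 835 and 840.0 CPM (CV 0.467%). Bcat1, a branched-chain amino acid transaminase, and Ablim1, an actin-binding LIM protein, had CVs of 0.568% and 0.593%. For genes not picked by a low CV, it was 2.12% for Actb, 5.59% for Hprt and 5.59% for B2m.

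The share of genes called different in the 5 mimic samples was uneven between the described lists. The edgeR quasi-likelihood test with Benjamini-Hochberg adjustment called 307 of 17365 genes lower (1.77%) and 188 higher (1.08%) in the mimic samples. Without control 1 these counts were 150 and 68, without mimic 2 they were 141 and 96, and without mimic 4 they were 175 and 103. Of the 20 pan-neuronal genes 1 was lower, of 18 postsynaptic genes 5 were lower and of 19 presynaptic genes 2 were lower. Of 19 astrocyte genes 2 were lower and 1 was higher, and of 13 glutamatergic genes 2 were lower and 1 was higher. Immediate early genes gave 2 of 13 lower, progenitor and cycling genes 2 of 11 higher, and choroid and ependymal genes 2 of 7 higher. None of 13 housekeeping and 13 long noncoding genes was called. No difference between a list and all genes was tested. Of the 9 fibroblast genes none was called, although their median log2 difference was 0.47, and of the 13 microglial genes tested none was called, with a median of -0.28.

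The vesicular glutamate transporter genes differed in opposite directions. Slc17a7 went from 921 ± 27.3 CPM in the 6 controls to 848 ± 50.1 CPM (SD) with mimic, a log2 difference of -0.14 (SE 0.03) with an edgeR quasi-likelihood adjusted p of 0.0239. Slc17a6 went from 41.4 ± 1.03 to 50.7 ± 4.03 CPM, a log2 difference of 0.28 (SE 0.04) with an edgeR adjusted p of 0.000519. Grin2a was lower in mimic samples, from 144 ± 3.62 to 126 ± 3.36 CPM with a log2 difference of -0.21 (SE 0.03) and an edgeR adjusted p of 9.95e-05. All 6 co-listed loci were called lower in mimic samples by the same test (median log2 difference -2.38). Their list was written with earlier results of these data known, so this count is a description. A fit with a block for the replicate number called none of the 6 loci, although the numbers did not pair the samples. The 6 loci were also among the most variable genes of the control cultures.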

How the data were processed

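RNA from primary mouse hippocampal neurons was sequenced as poly(A)-selected libraries (TruSeq RNA v2, which does not mark strand) with 50-base single-end reads. According to the submitters' processing notes, reads were checked with FastQC 0.11.5, aligned to mm10 with STAR 2.5.2b and counted with featureCounts of Subread 1.5.1. The annotation release, the strand setting and the treatment of reads that map to several places are not given in the sources used here. The authors deposited raw counts per Ensembl gene for each sample. They also deposited a table of normalized signal, the counts divided by a size factor per sample, which was used here for 1 alternative alone.

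Groups came from the titles. The 6 control samples were described alone, and 5 mimic samples entered 1 comparison. Of 48709 listed genes 48349 matched GENCODE M21 (GRCm38), and the other 360 held at most 0.046% of counts. TPM was computed from counts and merged exon lengths. Variation was estimated with edgeR 4.0.16 (TMM, R 4.3.3) over genes that had 5 counts or more in 50% or more of the samples. Control and mimic samples were compared with the two-sided edgeR quasi-likelihood test and Benjamini-Hochberg adjustment (threshold 0.05), and DESeq2 1.42.0, the study's tool, was an alternative. P-values measure the spread between these samples alone. Scripts were tested on simulated data. The members and gene lists were chosen with earlier results of these data known.

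Genes named by rule were the 10 nuclear protein-coding and 5 other nuclear genes with the highest TPM (at least 200 exon bases), members of the gene lists and pairs, the 10 most variable genes (at least 5 CPM) and the 5 most even genes (at least 100 CPM). Some listed genes and a sequence are not reported here. Counting intervals and limits cover counting error alone, since reads carried no molecular identifiers.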

Additional observations from a re-analysis of the deposited data

Results flagged for a closer look

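With 6 samples, a value was singled out where the gap between the highest or lowest sample and its neighbour exceeded Dixon's 95% limit for the range. Of 319 series examined 17 were, and chance gives about 1 in 20. Of the 247 genes among them 11 were, 5 of them for control 6 and 3 for control 2.

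Control 2 stood apart in 3 overlapping measures of composition. Its 10 most abundant genes held 4.15% of counts against 3.95% to 3.99% in the others. Its mitochondrial genome share was 3.48% against 3.20% to 3.26%, and that of mitochondrial protein-coding genes 3.12% against 2.84% to 2.92%. The second of these shares is part of the first. By mean CPM, mt-Co1 (8151) and mt-Cytb (7155) also lay above Cpe (3464), the highest nuclear protein-coding gene, so the measures are not separate evidence. In control 6, 1024 genes held 50% of counts against 1012 to 1014.

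Among lists and pairs, the summed interneuron subtype list was highest in control 1 with 2150.4 TPM against 1958 to 2024 TPM. The log2 ratio of Snap25 to Snap23 was lowest in control 6 with 5.29 against 5.41 to 5.47.

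Among single genes, control 6 was lowest for Calm3 (1726 CPM), Selenow (481 CPM) and Ier2 (10.5 CPM), and highest for Prox1 (35.5 CPM) and Ndnf (17.3 CPM). Control 2 was lowest for Pclo (296 CPM) and Grin2b (853 CPM) and highest for B2m (43.1 CPM). Control 3 was highest for Ccnb1 (1.73 CPM), control 4 lowest for Adarb2 (23.1 CPM) and control 5 lowest for Ddx3y (13.2 CPM).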

How the results depend on the processing

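Levels between genes depend on the length used. Of the 10 highest nuclear protein-coding genes 2 stayed among the 10 highest in CPM, 7 with the longest transcript and 8 among genes with at most 10% shared windows, a setting chosen after the data were seen. Of the 18 pairs 4 changed the sign of their mean log2 ratio: Sst over Npy (log2 0.027) and Gfap over Slc1a3 (-0.52) in CPM, Slc1a2 over Slc1a3 (-0.19) with the longest transcript, and Syn1 over Syn2 in both (-0.73 and -0.49). For Sst over Npy in CPM the cultures did not share 1 order. With 1 culture left out pairs were given as ratios alone, since 5 samples allow no p under 0.0625. Without the 6 loci and the mitochondrial genome in the total, the protein-coding share was 98.5% and that of ribosomal proteins 0.334%. Variable genes numbered 6030 with no count filter and 893 at 3 times the trend, and 3753 to 4058 with 1 culture left out. The common BCV was 3.14% to 3.69% with 1 culture left out, and the numbers of variable genes on the pan-neuronal, fibroblast, astrocyte, oligodendrocyte precursor and co-listed lists moved by at most 2. The median CV of a gene was 6.20%, and 6.18% from the deposited normalized table.

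Genes called between control and mimic samples numbered 785 with no count filter (485 lower, 300 higher), 530 with DESeq2 and 491 with RLE factors. With 1 sample left out there were 218 to 491, of which 141 to 295 were lower and 68 to 229 higher. The lowest total was that without control 1, and without mimic 2 and mimic 4 there were 237 and 278. Lower genes were 199 without control 4 and 202 without control 6. A replicate block over replicates 1 to 5 gave 328 (154 lower) and none of the 6 loci, of which 5 or 6 were called with 1 sample left out. The numbers did not pair the samples, as same-number correlations of deviations (-0.071 to 0.081, 5 pairs) lay within those of other pairs (-0.165 to 0.163). Of all single values compared 334 kept their level or count, 22 moved and 5 changed sign. Of the summaries 105 kept their level or count and 21 moved. Counts of low genes are limited by depth, as control 5 had 0.174 CPM for 3 counts.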

Other observations

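Histone genes, whose main transcripts lack a poly(A) tail, held 0.0085% of counts in these poly(A) libraries, and 8 of 65 reached 1 CPM. Zfp zinc finger genes were broadly present, with 330 of 394 at 1 CPM and 0.837% of counts. Tubulin genes held 0.654% of counts, with 18 of 23 genes at 1 CPM. These shares had CVs of 2.32%, 1.18% and 1.18% between the 6 control cultures.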
